A study of Mus musculus with 10 samples.

Results

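Splenic red pulp macrophages were compared with bone marrow-derived macrophages (BMDM) on Illumina mouse bead arrays, which read labelled RNA with gene-specific probes. The comparison set the untreated spleen array against the untreated BMDM array, and its members were the probes with a detection p-value under 0.01 on at least 1 of the 2 arrays. That rule took 12914 of 46632 probes, which stood for 7597 of the 17711 named genes on the array. Both cell types came from C57BL/6 mice, an inbred strain, given as male and 8 to 10 weeks old, and neither was treated. BMDM are marrow cells turned into macrophages in a dish, here over 7 days with M-CSF, the growth factor that macrophages need to survive. The rest of the series, 8 arrays of peritoneal, alveolar, liver (Kupffer), intestinal and adipose macrophages, was used for the error estimate and as a range. Neither the sorting of the splenic cells nor any pooling of animals is given in the sources used here.

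Each of the 2 cell types had 1 array, so no difference below has a replicate check of its own. The limma test took its spread from the 3 groups with 2 arrays (peritoneal, intestinal and adipose) and assumed that the splenic and BMDM samples vary as those do. Nothing in the labels says whether those duplicates came from separate animals, so their spread may be technical. Levels are given as normalized log2 intensity, on which 1 unit is a 2-fold difference, and a level is compared only between arrays for the same probe. A gene was called higher or lower when its adjusted p was under 0.05 over all 12845 transcripts tested and its difference was at least 2-fold. Where an array did not detect a gene, the fold was counted from that array's lowest detected level (6.24 for splenic, 6.17 for BMDM) and is written as "at least". For such a gene the standard error and adjusted p belong to the difference as measured, not to this bound. The median standard error of a difference was 0.26. In bulk RNA such as this, fewer cells of a type and less RNA per cell cannot be told apart.

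Genes of the sex chromosomes were checked against the labels. Xist, the RNA of the inactive X chromosome in females, read 9.69 on the BMDM array and was not detected on the splenic array or on any of the other 8, where it lay between 4.85 and 5.51. A second Xist probe was detected on no array and read 4.79 on the BMDM array. Eif2s3y, a gene of the Y chromosome, was not detected on the BMDM array and read 8.13 on the splenic array and 7.75 to 8.70 on the others, while its second probe was detected on no array. In the authors' series values the difference of Eif2s3y was 0.99 on the log2 scale, just under the 2-fold limit. Kdm5d, also Y-linked, read 6.36 on the splenic array, 4.56 and not detected on the BMDM array, and 4.89 to 6.28 on the others. Uty, another Y-linked gene, went the other way, detected on the BMDM array at 6.18 just above its lowest detected level and not on the splenic array at 5.57, with 5.38 to 6.34 on the others. Xist and Eif2s3y thus went against the male label of the BMDM array, and sex cannot be told apart from cell type in this comparison. Of 203 member genes on the X chromosome, 34 (16.7%) were called higher and 43 (21.2%) lower in splenic macrophages, against 18.5% and 18.4% on the other chromosomes. No other BMDM array was analysed here, so no result could be given without it.

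Red pulp macrophages line the open blood spaces of the spleen, engulf aged red blood cells, break down their heme and return the iron to the blood. The transcription factor SPI-C is needed for their development, and heme induces it. Macrophages grown with M-CSF are dividing or recently dividing cells that stick to plastic and are widely used as a stand-in for tissue macrophages.

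Many members of 4 sets described below differed in the same direction between the arrays, and some of their promoters hold the same short motifs. Promoter sequences are shown for a gene from each set. Each is the 250 bases before the gene's start from RefSeq (GRCm38.p6), written 5′ to 3′ along the gene with motif matches on either strand in capitals. The gene printed has the largest difference among the called members considered whose promoter holds the motif, or both motifs for class II. Part of the genome was left out of this choice. Cd74, a class II gene with a difference of 4.90 against 4.49 for H2-Eb1, was thus not considered. Hsd17b7 (an enzyme of cholesterol synthesis, chr1:169969206-169969455 on the minus strand) and Uhrf1 (which keeps DNA methylation through replication, chr17:56303087-56303336 on the plus strand) show CCAAT, the box read by NF-Y. Oas3 (an antiviral enzyme, chr5:120777660-120777909 on the minus strand) shows GAAA, any 2 bases and GAAA, the core of the interferon-stimulated element. H2-Eb1 (an MHC class II chain, chr17:34305617-34305866 on the plus strand) shows G, any 2 bases, AC, any base and GATG, the last part of the class II X box, and CTGATTGG, the Y box, whose reverse complement contains CCAAT.
Hsd17b7: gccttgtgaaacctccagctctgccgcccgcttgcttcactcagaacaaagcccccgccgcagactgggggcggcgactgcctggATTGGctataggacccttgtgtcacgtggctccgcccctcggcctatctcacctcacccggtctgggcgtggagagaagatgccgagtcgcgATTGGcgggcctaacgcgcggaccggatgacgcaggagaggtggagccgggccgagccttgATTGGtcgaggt
Uhrf1: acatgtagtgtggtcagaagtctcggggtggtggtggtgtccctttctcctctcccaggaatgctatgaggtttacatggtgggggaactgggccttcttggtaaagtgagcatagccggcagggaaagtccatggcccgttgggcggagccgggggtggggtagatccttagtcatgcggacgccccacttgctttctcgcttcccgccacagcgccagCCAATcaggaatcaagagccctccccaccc
Oas3: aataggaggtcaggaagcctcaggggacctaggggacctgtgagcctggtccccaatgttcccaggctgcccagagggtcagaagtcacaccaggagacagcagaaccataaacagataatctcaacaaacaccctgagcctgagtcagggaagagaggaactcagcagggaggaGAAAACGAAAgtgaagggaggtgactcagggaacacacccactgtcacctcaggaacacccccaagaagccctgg
H2-Eb1: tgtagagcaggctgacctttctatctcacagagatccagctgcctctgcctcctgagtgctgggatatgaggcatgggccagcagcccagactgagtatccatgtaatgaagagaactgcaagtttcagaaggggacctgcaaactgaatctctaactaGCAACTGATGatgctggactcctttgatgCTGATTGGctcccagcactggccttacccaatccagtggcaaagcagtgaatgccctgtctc

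Among all 27025 genes with a promoter entry, 34.5% held CCAAT, 3.04% the interferon motif, 2.52% the X box part and 4.07% the Y box. Among the 6297 member genes with an entry, the shares were 36.4%, 2.79%, 2.03% and 5.57%. CCAAT was present in 13 of 14 promoters of the cholesterol list and in 17 of 24 of the cell cycle list. The interferon motif was present in 8 of 15 promoters of the interferon list. In the MHC class II list, 3 of 9 promoters held the X box part and 3 of 9 the Y box, which was also in 4 of 14 promoters of the cholesterol list and 5 of 24 of the cell cycle list. These 4 motifs were picked, after their shares were seen, from 21 searched over 9 lists, and a match describes letters, not binding.

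Across the whole comparison, 1402 member genes (18.5%) were called higher in splenic macrophages and 1400 (18.4%) lower, or 36.9% in either direction. The counts of each gene list below are to be read against these shares. Over the probes, with no test, 2459 (19%) were at least 2-fold higher and 2512 (19.5%) at least 2-fold lower. The median difference of all member genes was -0.04, with quartiles of -0.75 and 0.72. Quantile normalization gives every array the same distribution, so a general shift between the cell types could not be seen. Levels of the 5875 genes detected on both arrays correlated at r = 0.758 across genes, which are not independent replicates. A further 784 member genes were detected only on the splenic array and 938 only on the BMDM array. Differences of 8-fold or more were found for 216 genes called higher and 169 called lower.

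**Figure D1:**
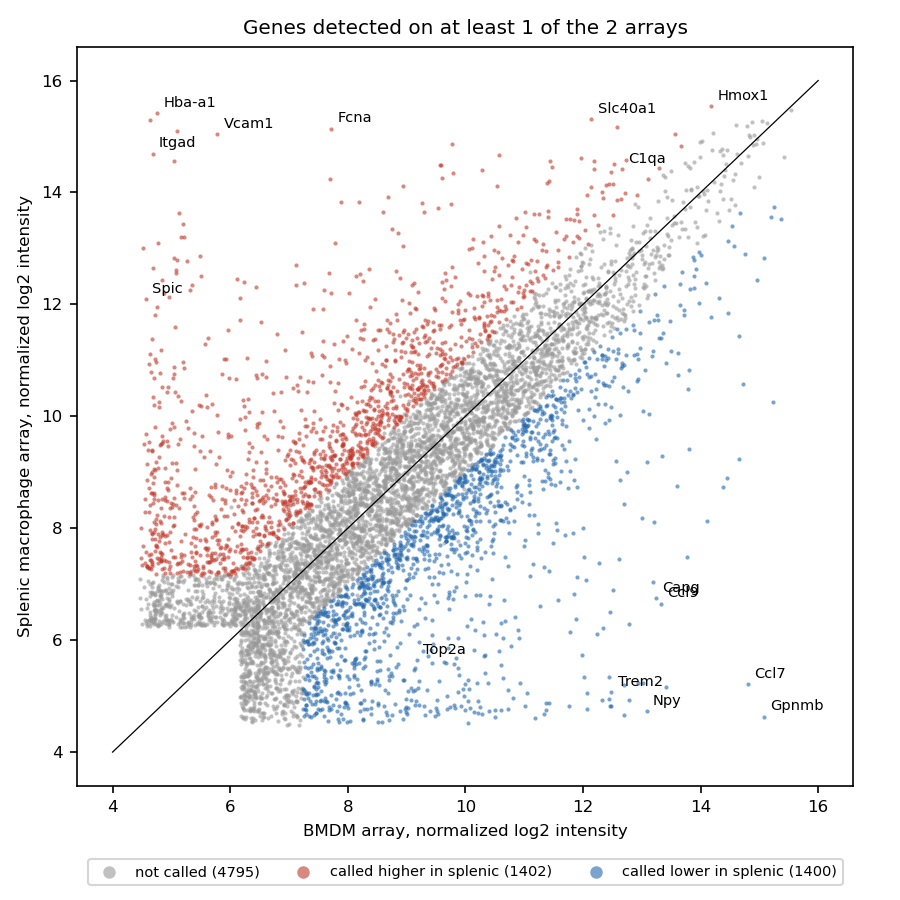
Normalized log2 intensity of the 7597 member genes on the BMDM array (horizontal) and the splenic array (vertical), 1 array each, coloured by call; the line marks equal levels. The 1402 genes called higher and 1400 called lower lie on either side, with Vcam1, Itgad and Hba-a1 at the upper left and Gpnmb and Ccl7 at the lower right.

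Set against the other 8 arrays, many of the called genes were extreme on the splenic or the BMDM array. The calling rule itself favours this, because it picks genes by the difference between those 2 arrays. Membership also required detection on either of them, which favours high ranks there. How far the counts below exceed what this selection gives was not tested, so they only describe the called genes and members. Of the 1402 genes called higher, splenic macrophages had the highest level of all 10 arrays for 720, and BMDM the lowest for 792. For the 1400 called lower, BMDM had the highest level for 935 and splenic macrophages the lowest for 546. Over all member genes, BMDM was the highest array for 1866 and the splenic array for 1261, and BMDM was the lowest for 1430 and the splenic array for 1038.

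The largest differences toward the spleen were globin genes. Hba-a1, Hbb-bt and Hbb-bs, which encode haemoglobin chains, read 15.42, 15.30 and 15.10 on the splenic array and were not detected on the BMDM array. Their standard errors were wide, 1.27 for Hba-a1, and globin RNA was also detected on 7 of the other 8 arrays. Slc4a1, the anion exchanger of red cells, read 12.83 on the splenic array, was detected on none of the other 9, and was at least 101-fold higher (adjusted p = 5.59e-06).

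Beyond these, Vcam1, an adhesion molecule of red pulp macrophages, read 15.05 on the splenic array and was not detected on the BMDM array, a difference of at least 470.1-fold (SE 0.25 on the log2 scale, adjusted p = 5.25e-06). Itgad, the CD11d integrin chain, read 14.69 and was not detected in BMDM, at least 367-fold (SE 0.22). Elsewhere in the series Itgad reached no more than 8.63 and was detected on 3 of the other 8 arrays. Fcna, a ficolin of the lectin complement pathway, was measured on both arrays, 15.14 against 7.71, a 172-fold difference (SE 0.22). Also at the top were Asb2 (at least 334-fold), Ear3 (176), Stab2 (154), Gpd1 (131), Ptgis (131), Slc45a3 (121), Apoc1 (114) and Hap1 (104), all not detected in BMDM. Asb2 is part of a ubiquitin ligase that targets filamins, Stab2 a scavenger receptor, Gpd1 a glycerol phosphate dehydrogenase and Ptgis prostacyclin synthase. Slc45a3 read 13.09 and was detected on 1 of the other 8 arrays. Others of these genes were high elsewhere in the series too. Fcna and Stab2 read 15.10 and 12.73 on the Kupffer array, and Asb2 up to 13.77 on an intestinal array. Apoc1 (14.94, Kupffer), Ear3 (15.31, alveolar) and Ptgis (13.98, peritoneal) reached levels above their splenic ones.

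Toward BMDM, Gpnmb, a glycoprotein of stressed lysosomes and lipid-laden macrophages, read 15.08 on the BMDM array and was not detected on the splenic array, at least 460.1-fold lower (SE 0.36, adjusted p = 5.59e-06). The splenic array was the only one of the 10 without Gpnmb detected. Ccl7, a chemokine for monocytes, read 14.80 in BMDM and was not detected in splenic macrophages, at least 379-fold lower. Npy, neuropeptide Y, read 13.08 in BMDM and was detected on no other array of the series. Measured on both arrays were Ccl9 (6.65 against 13.32, 102-fold lower), Capg (6.75 against 13.24, 90.01-fold) and Ahnak (7.48 against 13.77, 78.1-fold). The splenic levels of Ccl9 and Capg lie near that array's lowest detected level, 6.24, where a fold leans on the background correction. Before it, the intensities were 143.7 against 6702 for Ccl9 and 147.4 against 6220 for Capg. Capg caps actin filaments and Ahnak is a very large scaffold protein. The others of the 15 largest were Cd93, Dab2, Cdkn1a, Pmp22, Emp1, Niban2, Trem2, Lhfpl2 and Ccl2, each at least 75-fold lower and not detected on the splenic array. Trem2, a lipid receptor of macrophages, and Cdkn1a, a cell cycle inhibitor, were detected on all other 8 arrays.

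The label of the splenic array was checked against genes known for red pulp macrophages. All 17 detected genes of that list were called higher than in BMDM, with a median difference of 4.56 and standard errors from 0.21 to 0.33. Cd5l and Cd163, which many red pulp macrophages express, were detected on neither array. Pecam1 read 12.62 and Spic 12.09 on the splenic array, and neither was detected in BMDM, while Treml4 read 12.40 against 6.23. Adgre1, which encodes the macrophage antigen stained to find these cells, read 13.99 against 12.71. Of its 2 member probes, the other did not share this direction. Spic was highest on the splenic array of all 10, the next reading 8.68. The list was written with these genes' roles and earlier results of these arrays known, so its direction is not independent evidence.

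Genes known for M-CSF cultures went the other way, with 18 of 22 detected members called lower, 1 higher and a median of -4.35. Vim, the filament protein vimentin, read 9.24 on the splenic array and 14.65 in BMDM, 42.4-fold lower. Cd63, a tetraspanin of late endosomes, read 8.13 against 14.11, 63-fold lower. Cd9, Lgals1 and S100a4 were 28.4-fold, 17.6-fold and at least 35-fold lower. The exception was Mgll, a monoacylglycerol lipase, at 7.80 in splenic macrophages and not detected in BMDM, at least 3.09-fold higher, a call lost without background correction. Cadm1, Fabp5 and Ccl6 were not called, with differences of 0.83, -0.36 and -0.53. This list too was chosen with earlier results known.

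**Figure D2:**
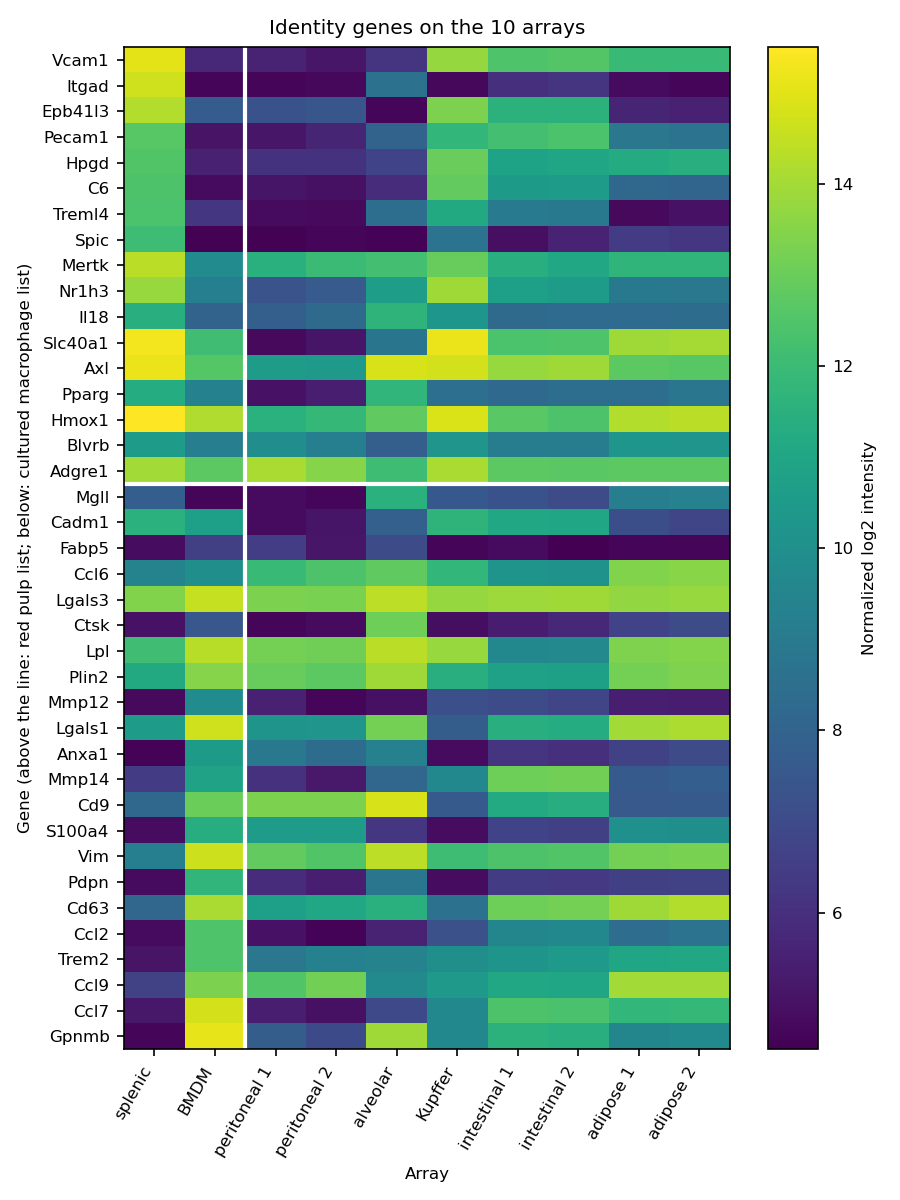
Normalized log2 intensity (colour) of the detected genes of the red pulp list (above the white line) and the cultured macrophage list (below) on all 10 arrays, in columns, the splenic and BMDM arrays to the left. The 17 red pulp genes are all brighter on the splenic than on the BMDM array, and 18 of the 22 cultured macrophage genes were called dimmer.

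Of 21 detected genes common to macrophages, 20 were detected on the splenic array and 21 on the BMDM array. Of these, 5 were called higher, 6 lower and 10 neither, with a median of 0.13. Over all member genes, 18.5% were called higher and 18.4% lower. Fcer1g, the shared signalling chain of Fc receptors, read 14.95 and 14.96, Laptm5 15.02 and 14.82, and Mpeg1, a pore-forming protein, 12.30 and 12.39. Fcer1g and Laptm5 lie near the top of the scale, where quantile normalization sets the arrays alike. Mertk, which binds dying cells, was 23.5-fold higher in splenic macrophages (14.34 against 9.79). Lyz2, lysozyme, read 10.26 in splenic macrophages against 15.23 in BMDM, 31.3-fold lower, and above its splenic level on all the other arrays. Itgam, the CD11b chain, was not detected on the splenic array and read 7.46 in BMDM.

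RNA of other cell types was read from marker lists, since sorted splenic cells can carry it. Of 13 detected erythroid genes, 12 were detected on the splenic and 2 on the BMDM array, and the normalized intensities of all list genes summed to 58092 and 659 (636 to 17085 on the other arrays). Among B cell genes, Cd79b read 12.38 against 7.25 and Cd79a 8.63 against not detected, with sums of 9373 and 1203 (1584 to 3052 elsewhere). Of 10 detected, 6 were called higher and 1 lower, Cd37, not detected against 9.22 and at least 7.88-fold lower. Ms4a1, Pax5 and Cd22 were detected on neither array. For T and NK cells, Cd3d and Cd3e read 8.04 and 7.56 on the splenic array and were not detected in BMDM. The sums were 2533 and 4718, the larger one led by Il7r and Cd8b1 (1972 to 6775 elsewhere). Dendritic cell genes summed to 5514 and 923 (1925 to 16385 elsewhere), with Clec9a at 7.97 against not detected. Flt3 and Xcr1 were detected on neither array. Neutrophil genes summed to 2512 and 1045 (1534 to 8924 elsewhere), and S100a8 read 9.33 against 7.53. The splenic sums of T, dendritic and neutrophil genes thus lay within the range of the other arrays. Such sums are led by their brightest genes, and single markers differed. Cd3d, Cd3e and S100a9 were highest of all 10 on the splenic array, while Cd4, Clec9a and S100a8 were higher elsewhere. The calls of Cd3d, Cd3e and Clec9a were lost without background correction.

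Monocyte genes leaned to BMDM, with sums of 984 and 5248 (1862 to 26668 elsewhere). Of the endothelial list, 13 of 18 genes, Cdh5 and Tek among them, were detected on neither array, and Stab2 alone was called higher. Of the fibroblast list, 16 of 17 were detected on neither array. Megakaryocyte genes summed to 3443 and 1791 (1929 to 15072 elsewhere), with Itga2b, Gp9 and Gp5 on neither array. Of the 5 detected, Clec1b (10.75 against not detected, at least 23.9-fold) and Vwf (10.44 against 6.87, 11.8-fold) were called higher. Pf4 was at least 16.1-fold lower, not detected against 10.25. The part that RNA of erythroid, B, T, dendritic and megakaryocyte cells had in the results below was not tested.

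Heme and iron genes were read in the order of the pathway. Of 24 detected, 10 were called higher, 3 lower and 11 neither, and the median was 0.05, near that of all genes. Hmox1, heme oxygenase, which opens the heme ring, was already high in BMDM at 14.18 and read 15.54 in splenic macrophages, a 2.57-fold difference (SE 0.26, adjusted p = 0.00434). That splenic level is near the top of the scale, which quantile normalization sets alike for all arrays, and this can limit the fold. Blvra and Blvrb, which reduce the resulting biliverdin, were 2.38-fold and 2.46-fold higher. Slc48a1, which moves heme out of the phagosome, was 2.15-fold higher (12.67 against 11.57).

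Slc40a1, ferroportin, the only known cellular iron exporter, read 15.31 in splenic macrophages and 12.14 in BMDM, 9.01-fold higher (SE 0.24, adjusted p = 7.52e-05). Trf, transferrin, the iron carrier of plasma, was 25.1-fold higher (14.25 against 9.60), and Hfe, which tunes iron sensing, 9.87-fold higher (10.63 against 7.33). Of the storage genes, Ftl1, the ferritin light chain, read 14.87 and 14.94, and Fth1, the heavy chain, 14.63 and 15.42, neither called. These levels too lie near the top of the scale, which can limit the fold. Uptake and sensing genes Tfrc, Slc11a2, Ireb2 and Aco1 were not called either, with differences between -0.63 and 0.11. Called lower were Alas1, which starts heme synthesis (11.16 against 12.51), Nfe2l2, the NRF2 stress regulator (not detected against 8.10), and Hp, haptoglobin (not detected against 7.30). Slc25a37, a mitochondrial iron carrier abundant in red cell precursors, was 2.59-fold higher, beside the erythroid sums above. The calls of Hp and Nfe2l2 were lost without background correction and those of Hp, Slc48a1 and Slc25a37 with median scaling.

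Lineage transcription factors split almost evenly, 10 higher, 8 lower and 13 not called of 31, with 4 lower under median scaling. Spic was at least 60.6-fold higher (SE 0.33, adjusted p = 7.97e-06). The sterol sensor Nr1h3 (LXR-alpha) read 13.82 against 9.27, 23.4-fold higher (SE 0.25). Batf3 (13.4-fold), Hes1 (9.13), Klf2 (6.38), Irf8 (4.95) and Pparg (4.01) were higher as well. Irf8 and Batf3 are also used by dendritic cells, whose sums are given above. Id1 and Id3, which block other factors from binding DNA, were at least 17.1-fold and 8.39-fold lower, while Id2 was 3.20-fold higher. Spi1, which encodes PU.1, read 8.88 against 9.99 and Cebpa 9.92 against 11.15, and both calls were lost when an intestinal or adipose array was left out. Maf, Irf5, Zeb2 and Bach1 were not called, with differences of 0.53, 0.21, 0.57 and -0.32.

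**Figure D3:**
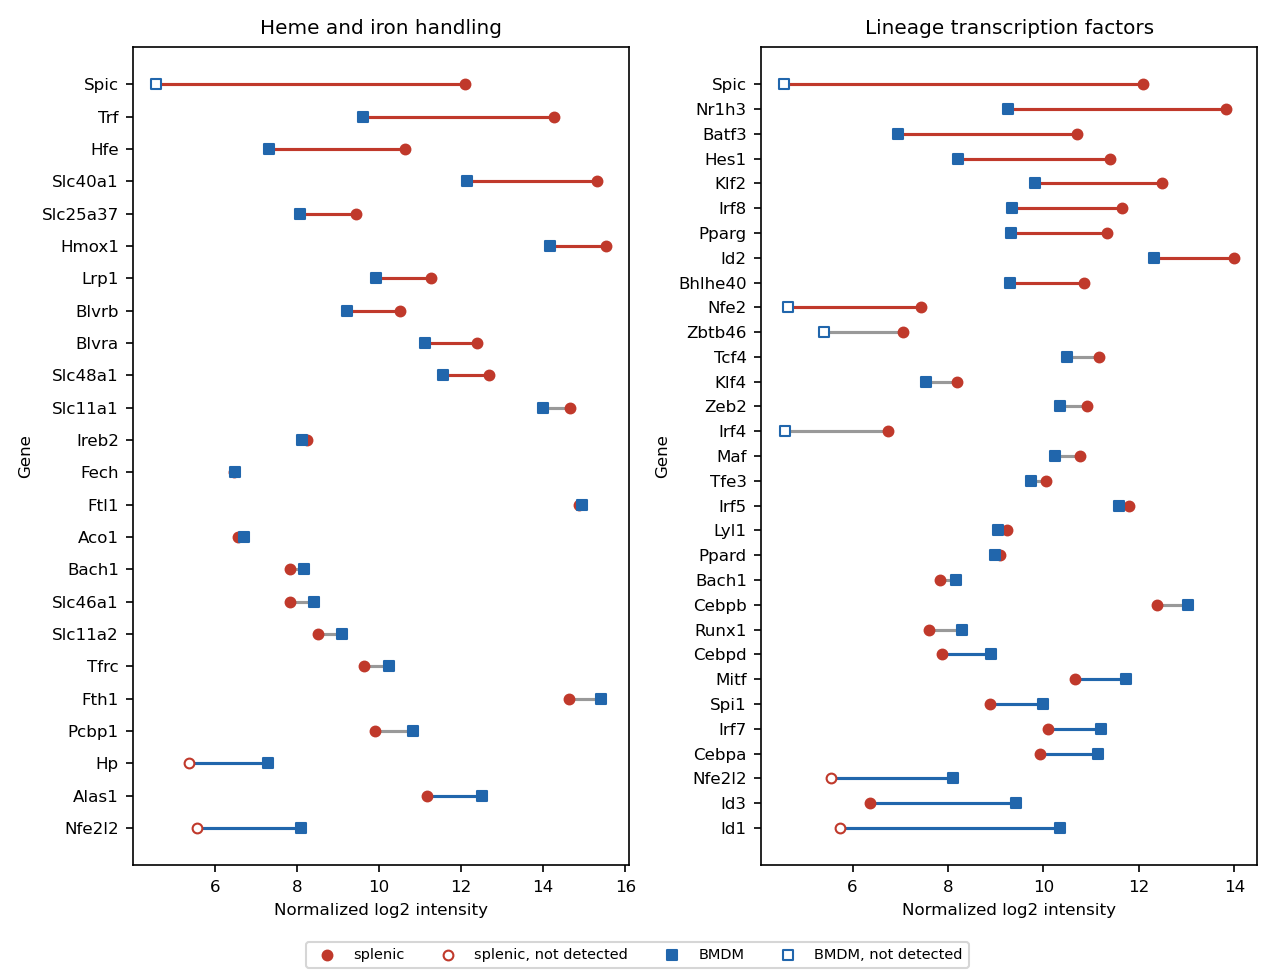
Normalized log2 intensity on the splenic array (circles) and the BMDM array (squares) for the 24 detected heme and iron genes (left) and 31 lineage factors (right), 1 array each, with open symbols where the gene was not detected and line colour by call (red higher, blue lower, grey not called). Slc40a1 and Hmox1 are high on both arrays, while Spic is detected on the splenic but not on the BMDM array.

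The MHC class II list held genes that load antigen for T cells and also costimulatory genes such as Cd86 and Cd40. Its members were mostly higher in splenic macrophages, 10 of 14 called higher, 1 lower, with a median of 2.73. H2-Ab1 read 14.12 against 8.94, 36.4-fold higher (SE 0.37), H2-Eb1 12.20 against 7.71, 22.5-fold, and H2-Aa 11.18 against 6.93, 19-fold. For each of these BMDM had the lowest level of all 10 arrays, and the splenic array ranked 7 from the top. On the other arrays H2-Eb1 read 9.11 to 15.38. Ciita, the master regulator of the class, read 8.87 and was not detected in BMDM. Cd86, a costimulatory ligand, was 37.7-fold higher (13.93 against 8.69), whereas Cd80 was not called and Cd40 was at least 9.23-fold lower. B and dendritic cells, which also carry class II, had the higher marker sums on the splenic array given above. MHC class I genes differed less, with 2 called higher, 2 lower and 13 of 17 neither. B2m, the light chain of class I, read 14.86 and 14.89, near the top of the scale, where likeness says little.

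Complement genes followed in part, with 7 of 13 higher, 2 lower and a median of 1.47, or 0.92 without background correction. C2 and C6 read 12.80 and 12.44 and were not detected in BMDM, at least 98.7-fold and 77.2-fold higher. C1qa was 3.36-fold higher (14.41 against 12.67), while C1qb and C1qc, the other chains of the same protein, were at 14.92 against 14.03 and 14.91 against 13.99 and fell short of 2-fold. Levels near the top of the scale can limit such folds. C5ar1, the receptor for the C5a fragment, was lower, not detected against 8.71.

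Scavenger and apoptotic-cell receptors were divided by member, 12 higher and 7 lower of 22. Stab2 read 13.44 and was not detected in BMDM, and its relative Stab1 was the reverse, not detected on the splenic array and 10.89 in BMDM. Timd4, a receptor for phosphatidylserine, was at least 9.80-fold higher, Mrc1, the mannose receptor, 7.96-fold, and Axl 6.04-fold. Gas6, the ligand that bridges Axl and Mertk to dying cells, was 14-fold lower (7.89 against 11.69). Msr1 and Siglec1 were at least 4.25-fold and 3.75-fold lower, and Marco was not called. Fc receptors split 3 and 3 of 8. Fcgrt, the neonatal Fc receptor, was 34.3-fold higher (14.87 against 9.77) and Fcgr4 6.20-fold. The inhibitory receptor Fcgr2b was at least 20.1-fold lower, not detected against 10.57, and Fcmr, the IgM receptor found on B cells, was at least 27.7-fold higher.

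Among integrins and adhesion genes, 8 of 21 were higher and 5 lower. After Vcam1, Itgad and Pecam1, Itga9 was at least 30.8-fold higher. Itga6, a laminin receptor chain, was at least 34.9-fold lower, not detected against 11.36. Itgb1 read 11.65 and 11.60.

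Chemokines lay largely on the BMDM side, 13 of 16 lower and 2 higher, with a median of -3.96. Ccl2, Ccl7 and Ccl12, which draw monocytes to tissues, read 12.47, 14.80 and 12.44 in BMDM and were all not detected on the splenic array. Ccl3 was not detected against 12.24, and Ccl4 read 9.42 against 13.80, 20.9-fold lower. Cxcl9, induced by interferon gamma, was 10.2-fold higher (10.10 against 6.74) and Ccl24 at least 12.2-fold higher. Ccl6 was not called. Cytokines were split, 7 higher and 7 lower of 22, beside 18.5% and 18.4% over all member genes. Il1b, Il16 and Il18 were at least 25.7-fold, at least 41.5-fold and 10.8-fold higher. Tnf read 6.72 against 10.66, 15.3-fold lower, and Il1rn, which blocks the interleukin-1 receptor, was at least 27.3-fold lower.

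The interferon list, genes turned on by type I interferon or interferon gamma, had 11 of 20 lower and 1 higher, with a median of -1.14, or -0.75 in the authors' series values. Oasl1, Oas3 and Oasl2, of the oligoadenylate synthetase family, were not detected on the splenic array and read 10.65, 9.31 and 9.12 in BMDM. Ifit2, which binds viral RNA, read 8.72 against 11.75, 8.21-fold lower. Rsad2 and Oas2 were not called (differences of -0.53 and -0.08), and Gbp3, a guanylate-binding protein, was 3.25-fold higher.

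Cell cycle and DNA replication genes were lower in splenic macrophages nearly without exception, 28 of 31 lower and none higher, with a median of -2.17, or -1.42 without background correction. Gins2, part of the replication helicase, read 6.34 against 10.67, 20.1-fold lower (SE 0.25), its splenic level just above the lowest detected one (6.24). Uhrf1 was 13.9-fold lower (7.36 against 11.16, SE 0.44), and Cdk1, the kinase of mitosis, at least 12.4-fold lower, not detected against 9.87. Mcm5 and Mcm6, helicase subunits, were 6.83-fold and 7.66-fold lower, and Ccnd1, cyclin D1, 7.86-fold (10.82 against 13.80). Top2a was not detected against 9.17. The 3 members not called were Tk1, Cenpa and Nusap1, at -0.10, -0.41 and -1.22. All 31 were detected in BMDM and 20 of them on the splenic array.

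Cholesterol synthesis went with them, 14 of 17 lower and none higher, with a median of -1.71. Sqle, squalene epoxidase, was not detected on the splenic array and read 11.78 in BMDM, at least 46.4-fold lower (SE 0.32, adjusted p = 2.06e-05). Fdps (9.00 against 12.74), Hsd17b7 (6.81 against 10.26), Cyp51 (8.10 against 11.54) and Msmo1 (9.20 against 12.56) were 13.4-fold, 10.9-fold, 10.9-fold and 10.3-fold lower. Srebf2, the factor that drives the pathway, was 3.27-fold lower. Ebp, Hmgcs1 and Dhcr7 were not called, at -0.60, -0.94 and -0.98. In fatty acid synthesis 6 of 10 were lower, with Scd2 5.52-fold and Fasn, the synthase itself, 5.49-fold lower. Lipid efflux and apolipoprotein genes were mixed, 4 higher, 3 lower and 6 not called of 13, with a median of -0.26. The shares over all member genes were 18.5% higher and 18.4% lower. Besides Apoc1, the apolipoprotein Apoe, the exporter Abcg1 and the HDL receptor Scarb1 were 5.16-fold, 3.55-fold and 5.60-fold higher. Plin2, a lipid droplet coat protein, Lpl, lipoprotein lipase, and Npc2, a lysosomal cholesterol carrier, were 5.03-fold, 4.58-fold and 2.25-fold lower.

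Glycolysis genes were lower for 9 of 14 and higher for none, with a median of -1.68. Hk1, which traps glucose in the cell, read 7.08 against 12.04, 31.2-fold lower (SE 0.25). Slc2a1, the glucose transporter, Pkm, pyruvate kinase, and Ldha, lactate dehydrogenase, were 7.16-fold, 5.27-fold and 3.16-fold lower. Gapdh, often taken as a reference gene, was 2.86-fold lower (13.74 against 15.26), while Actb read 15.48 and 15.54. Both Actb levels lie near the top of the scale, where quantile normalization sets the arrays alike, so their likeness says little. Hk2, Hk3 and Pfkfb3 were not called. The respiratory chain differed little, with 32 of 38 not called, 5 lower, 1 higher and a median of -0.47. Cytosolic ribosomal protein genes were the flattest, with 39 of 44 not called and a median of -0.03.

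**Figure D4:**
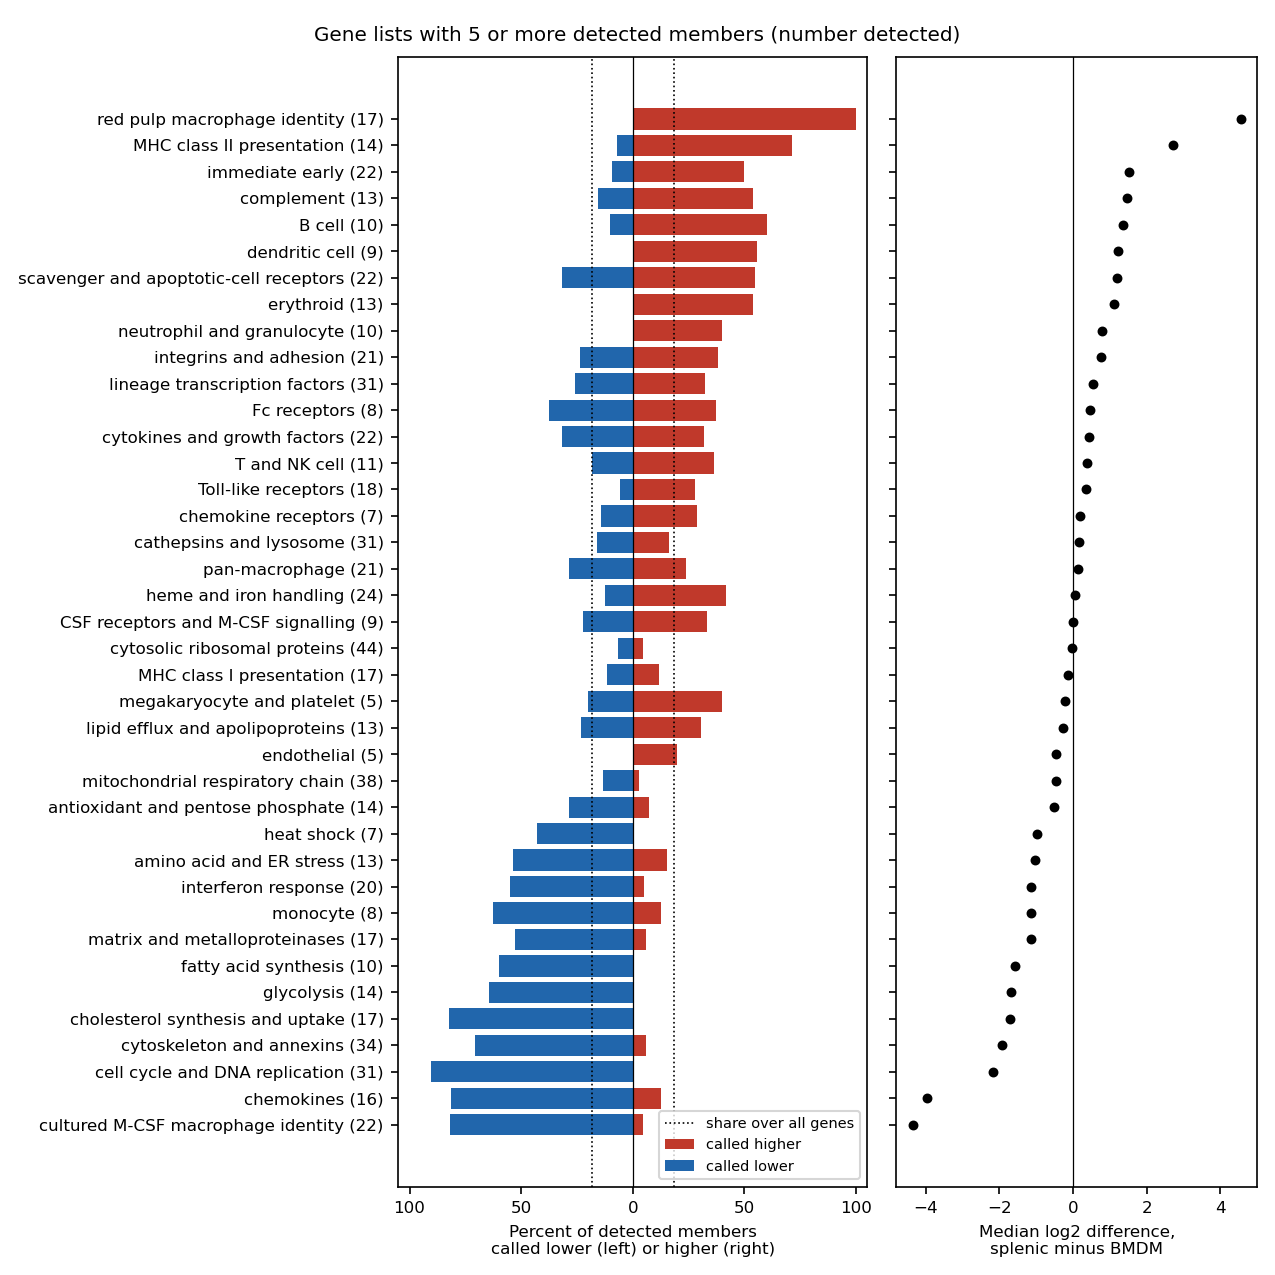
Percent of the detected members of each gene list called higher (right) or lower (left) in splenic macrophages, with the share over all genes (18.5% and 18.4%) as dotted lines, and the median log2 difference of each list. Cell cycle, cholesterol, chemokine and cultured macrophage lists lie to the left, red pulp and MHC class II lists to the right, and ribosomal proteins near 0.

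Cytoskeleton and annexin genes were lower for 24 of 34 and higher for 2, with a median of -1.94. S100a6 read 8.74 against 14.38, Myo1e 6.38 against 11.88 and Tpm4 8.75 against 13.60. These were 49.8-fold, 45.2-fold and 28.7-fold lower, the splenic level of Myo1e lying just above the lowest detected one (6.24). Lmna, which encodes the nuclear lamins A and C, was 19.2-fold lower (8.44 against 12.70). Zyx and Actn1, of focal adhesions, were 3.26-fold and 3.09-fold higher. Flna and Myh9 were not called. In the matrix list 9 of 17 were lower, with Plau, urokinase, 49.4-fold (6.89 against 12.52) and Adam8 at least 56.9-fold lower, and Adamdec1 alone higher.

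Immediate early genes, which cells induce within minutes of a stimulus, were higher for 11 of 22 and lower for 2, with a median of 1.52. Fos read 14.12 against 10.54, 11.9-fold higher (SE 0.20, adjusted p = 2.17e-05), Zfp36 14.57 against 11.45, and Egr1 11.32 against 8.93. Atf3 and Dusp5 were lower, 3.26-fold and 4.71-fold, the call of Atf3 being lost with median scaling. With a detection p of 0.05 the list's median was 0.96. Amino acid and ER stress genes leaned to BMDM, 7 lower and 2 higher of 13. Psat1 and Asns, which make serine and asparagine, were not detected on the splenic array and read 10.40 and 9.13 in BMDM. Ddit4, an inhibitor of mTOR signalling, was at least 27.3-fold higher, at 10.94 on the splenic array against 6.92 or less on the others, and Herpud1, of ER protein degradation, was 3.18-fold higher.

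**Figure D5:**
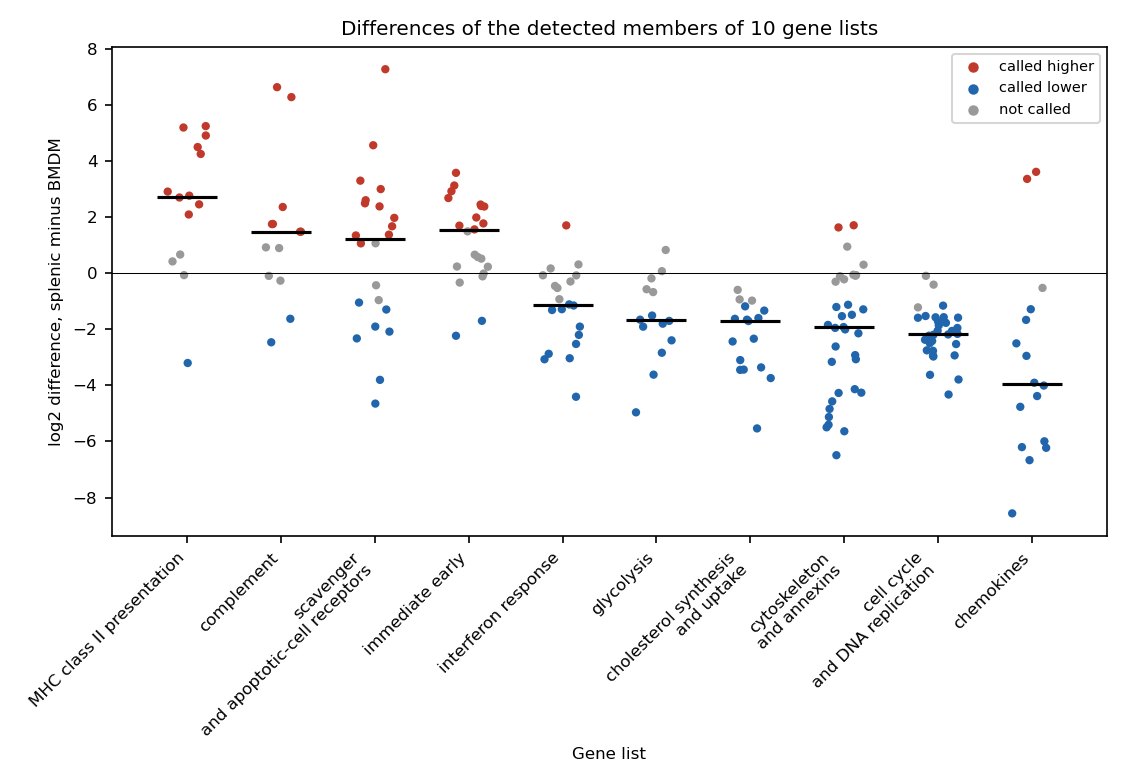
Log2 difference, splenic minus BMDM, of each detected member of 10 gene lists, 1 point a gene coloured by call, with a bar at the list's median and points spread sideways for sight. All 31 cell cycle and all 17 cholesterol genes lie below 0, and the MHC class II list holds 1 gene called lower, Cd40.

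Of 31 detected lysosomal genes, 5 were called higher, 5 lower and 21 neither, with a median of 0.16. These counts are near the shares over all member genes, 18.5% higher and 18.4% lower. Ctsb and Ctsd, abundant proteases, read 14.66 and 14.38, and 13.86 and 14.12. Ctsf was at least 12.4-fold higher, and Gusb 6.95-fold lower.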

How the data were processed

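RNA of 10 macrophage samples in 7 groups was measured on 1 array each. The deposited table holds, per the file headers, a linear intensity for 46632 probes, each paired with a p-value for detection, and no normalization between arrays. The authors' series values are deposited as intensity too, by a method not given in the sources used here. No per-sample column was set aside (0 left out). The neqc function of limma 3.58.1 (R 4.3.3, offset 16) removed background, using those p-values, and gave quantile-normalized log2 values. Per array 22.6% to 26.4% of probes were detected, 23.2% for splenic and 23.7% for BMDM, while precision is limited by the number of arrays.

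A gene symbol was available for 29976 probes, several for 10 and none for 16646, and 29921 matched the RefSeq gene table (GRCm38.p6). A gene was read from its probe with the highest mean over the 10 arrays. Transcripts detected on at least 1 array (12845) entered a limma model with 1 mean per group, 3 residual and 4.02 prior degrees of freedom and a prior SD of 0.188, with Benjamini-Hochberg adjustment over all of them. The model was tested on simulated data with known changes. Its noise was drawn from the fit, so the assumption about single arrays was built in.

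Genes named were the 15 highest and 15 lowest called, up to 6 called per list and direction, every member of the identity, iron, factor and pan-macrophage lists, members called against their list's majority, and detected markers of other cells. Members named with values below 2-fold were added after their values were seen. The members and lists were chosen with earlier results of these data known. Alternatives changed the background correction, scaling, offset, filter, variance trend, probe choice, array set and duplicates. The array set split the arrays by median raw intensity, with splenic (101.2) and BMDM (107.9) in the dimmer set. The intestinal and adipose duplicates lay in the brighter set, and the peritoneal pair had an array in each.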

Additional observations from a re-analysis of the deposited data

How the results depend on the processing

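Called counts stood at 1402 genes higher and 1400 lower. Without background correction they were 958 and 920, with the authors' series values 953 and 908, and with median scaling 954 and 990; nearly all of those calls were shared with the reported ones (953 and 915, 948 and 905, 952 and 975). A larger offset of 50, cyclic loess, no filter, a detection p of 0.05, a variance trend, array set as a block and the probe brightest on the 2 arrays gave 1235 to 1563 higher and 1228 to 1605 lower. Leaving out each duplicate array in turn gave 1361 to 1432 higher and 1336 to 1434 lower. Without genes of the X and Y chromosomes, an alternative chosen after seeing the data, the counts were 1367 and 1357. Probes at least 2-fold apart, 4971 in all, numbered 3039 (1533 higher, 1506 lower) in the authors' values and 3081 (1545 and 1536) without background correction. Of 346 genes followed, 273 were called, 220 kept the call in every one of 16 alternatives that held them, and none reversed; outside these, Phf6 was called higher, and lower with the probe brightest on the 2 arrays. Of the calls, 40 were lost without background correction, 41 in the authors' values, 23 with median scaling and 13 with the larger offset. Hp, Nfe2, Nfe2l2, Cfb, Itgam and Mgll were lost both without background correction and in the authors' values; Spi1 was lost there too, and with median scaling, loess and no filter. Slc48a1, Slc25a37, Cebpa, Atf3 and Gstp1 were lost with median scaling. List medians also moved by over 1.5 times. Without background correction and in the authors' values they were 0.92 and 0.93 for complement, -1.42 and -1.41 for the cell cycle, and -0.92 and -0.89 for fatty acid synthesis. The interferon median was -0.75 in the authors' values, and the immediate early median 0.96 with a detection p of 0.05. Medians near 0 changed sign for lysosomal genes (-0.04 with median scaling), iron genes (-0.01 with a detection p of 0.05) and ribosomal proteins (0.06 with loess). Lower lineage factors numbered 5 without background correction and 4 with median scaling, and lower iron genes 1 without background correction. The cause was not tested. Median scaling moved the median of all genes from -0.04 to -0.10. No paired analysis was possible because each of the 2 groups has 1 array, so they share only 1 replicate number.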

Other observations

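Toll-like receptors and their adaptors were called higher in splenic macrophages for 5 of 18 and lower for 1. Over all member genes the shares were 18.5% and 18.4%. Tlr4, the receptor for bacterial endotoxin, read 10.63 against 8.72, 3.76-fold higher, and its partner Ly96 11.23 against 9.09, 4.43-fold. Tlr13 was 2.68-fold lower, and Tlr2, Myd88 and Ticam1 were not called. Irak2 was 3.25-fold higher, a call lost with another choice of probe. Among chemokine receptors, Cx3cr1 was 6.42-fold lower (7.78 against 10.46). Ccr3, best known from eosinophils, read 9.60 on the splenic array and was detected on no other array, while Prg2, another eosinophil gene, read 6.69 there and Epx was not detected.

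Antioxidant and pentose phosphate genes were lower for 4 of 14, where the share over all member genes was 18.4%. Srxn1 was 12-fold (7.97 against 11.55) and Gclm 2.66-fold lower, and Gstp1 2.39-fold higher, a call lost with median scaling. Heat shock genes were lower for 3 of 7, Hspd1 by 4.26-fold and Hsph1 by 4.43-fold. Il7r, the interleukin-7 receptor, read 11.42 in BMDM and was not detected on the splenic array. Of the called genes with more than 1 member probe, 685 of 801 had all probes on one side, and 15 had another probe detected on both arrays and at least 2-fold the other way, Cd180, Gnas and Rab5b among them.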
